A study of Mus musculus with 60 samples.

Results

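The genes described here are Igf1, Igf1r, Igf2r, Akt1, Akt2 and Tbc1d4, 6 of the 770 genes of the nanoString nCounter mouse neuroinflammation panel, chosen by symbol as the panel's members of insulin-like growth factor (IGF) and insulin signalling. Their expression was read in the hippocampus, hypothalamus and brain stem of 20 female Balb/C mice, all 13 weeks of age at collection. The tumor groups carried tumors grown from 67NR, a mouse mammary carcinoma line that does not metastasize, after injection into the mammary glands, and the vehicle groups received culture medium (DMEM) by the same route. All mice were collected 25 days after injection, either at mid-dark (ZT19, that is 19 h after lights on) or at mid-light (ZT7), with 5 mice in each tumor and phase group. Since 67NR is 1 cell line implanted in 1 mouse strain and sex, and each phase is a single time point, the groups describe that tumor and those times only. Of 60 samples listed, 56 had values, and 4 labelled as outliers (1 of brain stem and 3 of hypothalamus, all from vehicle mice) had none. Groups therefore held 5 samples each, except hypothalamus of the vehicle groups (3 mid-dark, 4 mid-light) and brain stem of the mid-dark vehicle group (4). Values are log2 normalized counts, and because 1 probe reads each gene, levels are compared between samples and not between genes.

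IGF-1 is a secreted growth factor that in brain acts on neurons and glia and is also made by microglia and endothelium. It binds the receptor tyrosine kinase encoded by Igf1r, which signals, as the insulin receptor does, through phosphatidylinositol 3-kinase to the AKT kinases. Igf2r encodes the cation-independent mannose 6-phosphate receptor, which clears IGF-2 and sorts lysosomal enzymes. AKT phosphorylates TBC1D4 (AS160), a Rab GTPase-activating protein that holds glucose transporters inside the cell until it is phosphorylated, and it keeps FoxO transcription factors out of the nucleus. Transcript levels do not report phosphorylation, so none of the values below is a measure of signalling activity.

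The tissue labels were checked against region markers. All 5 markers of forebrain excitatory neurons (Tbr1, Nrgn, Slc17a7, Camk4 and Bdnf) were higher in hippocampus than in either other region, and the forebrain regulators Dlx1 and Dlx2 were highest in hypothalamus. Ttr, a choroid plexus gene and not a marker of any of these regions, ran from 5.36 to 14.7 among hippocampal samples, 4.33 to 5.34 in hypothalamus and 6.49 to 13.8 in brain stem. Its part in the results below was not tested. The RNA absorbance ratio given in the labels, a measure of purity, lay under 1.8 in 6 samples, 5 of them from brain stem. Over all samples the quantile-normalized table holds 770 distinct values, and a sample holds some of them more than once and others not at all. In bulk tissue, fewer cells of a type and less RNA per cell cannot be told apart.

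The largest differences in these genes lay between regions, in Tbc1d4 and Akt2. Tbc1d4 rose from hippocampus through hypothalamus to brain stem, Akt2 was highest in hippocampus, and Akt1, Igf1r and Igf2r differed by less than 0.3 log2 units. Igf1 passed no test between regions. Region differences were common across the panel: 71.7% of genes were called (adjusted p under 0.05) between hippocampus and hypothalamus, where 4 of the 6 genes were called, 76.6% between hippocampus and brain stem (5 of 6) and 66.5% between hypothalamus and brain stem (4 of 6). These counts lie near the panel's own shares and say nothing particular about the genes of this pathway.

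Igf1, the ligand, read 5.52 ± 0.30 (SD, n = 20) in hippocampus, 5.55 ± 0.38 (n = 17) in the hypothalamus and 5.49 ± 0.26 (n = 19) in the brain stem. These levels overlap almost entirely. The hippocampus minus hypothalamus difference was -0.0031 (95% interval -0.19 to 0.18), so differences of about 0.2 log2 units or more lay outside the interval. Igf1 had the widest spread between samples of the 6 genes in each region, from 4.77 to 6.08 in hypothalamus. Its values lay low on the panel, at a mean rank of 584 to 603 from the top of 770 genes across regions and phases. The part of low signal in this spread was not tested.

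Igf1r, the IGF-1 receptor, read 9.64 ± 0.14 in hippocampus, 9.51 ± 0.13 in the hypothalamus and 9.49 ± 0.13 in the brain stem. The hippocampus was higher by 0.12 than the hypothalamus (SE 0.032, adjusted p = 8.19e-04) and by 0.14 than the brain stem (SE 0.031, adjusted p = 5.32e-05), in 14 of 17 and 16 of 19 mice. Hypothalamus and brain stem, neighbours in that order, differed by 0.021 (adjusted p = 0.589), less than their spread, and by -0.11 (adjusted p = 0.0171) when the panel's reference genes were subtracted. In vehicle mice alone the difference between hippocampus and hypothalamus was 0.083 (adjusted p = 0.175). Igf2r read 9.32 ± 0.11 in hippocampus, 9.34 ± 0.13 in the hypothalamus and 9.15 ± 0.13 in the brain stem. It was lower in brain stem than in hippocampus by 0.18 (adjusted p = 1.40e-05) and than in hypothalamus by 0.20 (adjusted p = 1.54e-05), and hippocampus and hypothalamus did not pass the test (-0.014, adjusted p = 0.758). With the reference genes subtracted, the hypothalamus minus brain stem difference of Igf2r was 0.063 and no longer called (adjusted p = 0.192), and hippocampus minus hypothalamus turned to 0.093 (adjusted p = 0.0499).

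The 2 AKT genes ran in different orders. Akt1, the more widely expressed kinase gene of the pair in most tissues, read 10.51 ± 0.11 in hippocampus, 10.66 ± 0.11 in the hypothalamus and 10.78 ± 0.10 in the brain stem, and all 3 steps passed the test (adjusted p = 9.33e-05, 0.00176 and 1.63e-10). The call between hippocampus and hypothalamus was lost with the reference genes subtracted (-0.042, adjusted p = 0.394), and that between hypothalamus and brain stem in vehicle mice alone (-0.12, adjusted p = 0.0735). Within mice, Akt1 was lower in hippocampus than in brain stem in 19 of 19. Akt2, the isoform best known for insulin-stimulated glucose uptake, read 9.60 ± 0.17 in hippocampus, 8.90 ± 0.099 in the hypothalamus and 9.10 ± 0.18 in the brain stem. It was 1.62-fold higher in hippocampus than in hypothalamus (0.70, SE 0.047, adjusted p = 2.31e-18) and 1.41-fold higher than in brain stem (0.50, SE 0.045, adjusted p = 4.86e-14), in every one of 17 and 19 mice with both regions. The lowest hippocampal sample, at 9.25, lay above the highest hypothalamic sample, at 9.07; 19.7% of all genes did not overlap between these regions. Brain stem exceeded hypothalamus by less (hypothalamus minus brain stem -0.20, adjusted p = 2.69e-04).

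Tbc1d4, the AKT substrate, read 6.90 ± 0.21 in hippocampus, 7.45 ± 0.16 in the hypothalamus and 8.37 ± 0.15 in the brain stem. Its samples ran from 6.49 to 7.31, from 7.20 to 7.76 and from 7.96 to 8.55 in these regions. Brain stem thus overlapped neither other region, while hippocampus and hypothalamus overlapped between 7.20 and 7.31. All 3 differences passed the test: -0.55 for hippocampus minus hypothalamus (SE 0.047, adjusted p = 7.49e-15), -1.47 for hippocampus minus brain stem (SE 0.045, adjusted p = 2.08e-32) and -0.92 for hypothalamus minus brain stem (SE 0.048, adjusted p = 1.68e-22). The order held within 17 of 17, 19 of 19 and 16 of 16 mice. Of all genes, 26.2% did not overlap between hippocampus and brain stem and 15.6% between hypothalamus and brain stem. Oligodendrocyte markers (Mog, Mag, Mobp, Cnp and Opalin) ran in much the same order: all 5 were lower in hippocampus and hypothalamus than in brain stem, and 4 were lower and 1 higher in hippocampus than in hypothalamus. On the log2 scale their summed level spanned 13.2 to 14.7 for hippocampus, 14.1 to 14.7 for hypothalamus and 15.3 to 15.7 for brain stem. Their part in the Tbc1d4 order was not tested.

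**Figure D1:**
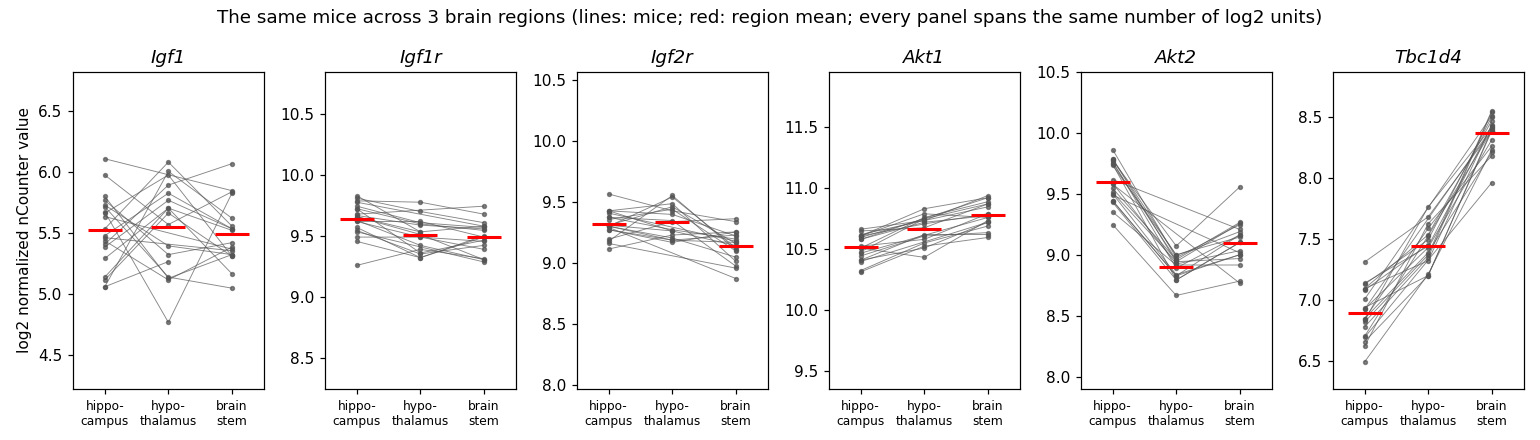
Log2 normalized value (vertical axis) of each gene in hippocampus, hypothalamus and brain stem; each grey line joins the samples of 1 mouse, and a red bar is the mean of a region. Every panel spans the same number of log2 units, which shows the steps of Tbc1d4 from 6.90 to 8.37 and the high hippocampal level of Akt2 (9.60) beside the flatter other genes.

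The study asked whether mammary tumors change expression in the brain and whether that response varies with time of day. Dark was first compared with light directly, which was not among the study's planned comparisons. Averaged over the 3 regions and both tumor states, Igf1r and Tbc1d4 were higher at mid-dark than at mid-light, and they were the only genes of the 6 that were called. Across the panel 13.5% of genes were called in this comparison, 8.05% higher and 5.45% lower. Igf1r was higher by 0.17 (SE 0.031, 1.13-fold, adjusted p = 6.10e-05) and Tbc1d4 by 0.15 (SE 0.045, 1.11-fold, adjusted p = 0.0210). The other 4 genes had differences from -0.051 for Akt1 to 0.037 for Igf1, with adjusted p from 0.349 to 0.878. The Tbc1d4 call did not hold without mouse 4, 6, 11 or 29 (adjusted p up to 0.0573) or when the panel's reference genes were subtracted (0.13, adjusted p = 0.0797).

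Igf1r lies on mouse chromosome 7 (67952257 to 68233668) and Tbc1d4 on chromosome 14 (101442360 to 101609281) in GRCm38.p6, the RefSeq build used here for positions; the deposited table names no build. Their promoter windows are printed because these were the 2 genes that differed between dark and light. Each runs from 250 bases before to 50 after the RefSeq start, 5′ to 3′ on the gene's strand, at chr7:67952007-67952306 (plus strand) and chr14:101609142-101609441 (minus strand). Capitals mark matches to the GC box GGGCGG on either strand.
Igf1r: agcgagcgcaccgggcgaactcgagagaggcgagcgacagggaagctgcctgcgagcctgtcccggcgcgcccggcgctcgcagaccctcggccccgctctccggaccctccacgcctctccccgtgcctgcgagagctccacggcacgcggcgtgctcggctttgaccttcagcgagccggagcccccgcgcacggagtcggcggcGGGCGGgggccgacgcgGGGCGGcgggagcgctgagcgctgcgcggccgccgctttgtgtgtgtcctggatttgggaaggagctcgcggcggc
Tbc1d4: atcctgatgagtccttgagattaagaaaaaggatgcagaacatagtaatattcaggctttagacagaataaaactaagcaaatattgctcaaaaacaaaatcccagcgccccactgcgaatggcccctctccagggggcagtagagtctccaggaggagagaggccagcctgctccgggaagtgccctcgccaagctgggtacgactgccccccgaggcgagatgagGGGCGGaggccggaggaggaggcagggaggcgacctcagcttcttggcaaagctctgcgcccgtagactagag
The Igf1r window held 2 GC boxes and the Tbc1d4 window 1, and 35.7% of all 32851 promoter windows hold at least 1. The E-box CACGTG, the canonical element bound by CLOCK and BMAL1, is in neither window and in 7.15% of all windows. The FoxO element TGTTTAC, searched on both strands, is in neither window and in 3.65% of all. These are matches of letters only, and no match says only that those letters are not in these 300 bases. GC content was 76.0% in the Igf1r window and 55.7% in the Tbc1d4 window.

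In hippocampus Igf1r was 9.62, 9.68, 9.78, 9.79 and 9.83 in the vehicle mice at mid-dark, against 9.26, 9.49, 9.53, 9.57 and 9.62 at mid-light. In tumor mice it was 9.63, 9.67, 9.72, 9.74 and 9.81 at mid-dark, against 9.45, 9.54, 9.66, 9.66 and 9.72 at mid-light. In both tumor states the dark samples were the higher ones, with the groups meeting at 9.62 in vehicle mice and overlapping between 9.63 and 9.72 in tumor mice. Over both states the difference was 0.18 (SE 0.049, 1.13-fold, adjusted p = 0.0429), in a comparison where 5.59% of genes were called. Within vehicle mice it was 0.24 (adjusted p = 0.0755) and within tumor mice 0.11 (adjusted p = 0.615), and neither was called. The interaction of tumor and phase was -0.14 (95% interval -0.35 to 0.070, adjusted p = 0.758).

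In hypothalamus Igf1r was 9.53, 9.62 and 9.78 in vehicle mice at mid-dark, against 9.32, 9.39, 9.49 and 9.49 at mid-light, so the groups did not overlap; with groups this small 7.92% of all genes did not. In tumor mice it was 9.42, 9.59, 9.60, 9.61 and 9.70 at mid-dark, against 9.32, 9.35, 9.36, 9.51 and 9.53 at mid-light, where 1 dark sample lay within the light range. The difference over both states was 0.19 (SE 0.053, 1.14-fold) and missed the threshold in the fit of this region alone (adjusted p = 0.0721), in which no gene of the 6 and 2.34% of all genes were called. With the 3 regions fitted together and the mouse as a block it was 0.20 with adjusted p = 0.0204. Without mouse 23 it was 0.21 with adjusted p = 0.0415, and leaving out any of the other 19 mice gave no call among the 6. At an unadjusted p under 0.05, limma gave 1 of the 6 genes here, Igf1r, and 13.2% of all genes.

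In brain stem Igf1r was 9.49, 9.58, 9.68 and 9.74 in vehicle mice at mid-dark, against 9.29, 9.31, 9.39, 9.45 and 9.49 at mid-light. In tumor mice it was 9.30, 9.54, 9.56, 9.57 and 9.61 at mid-dark, against 9.30, 9.42, 9.46, 9.50 and 9.58 at mid-light. The vehicle groups met at 9.49, and in tumor mice the lowest dark sample, from mouse 23, stood with the lowest light sample. The RNA absorbance ratio of the mouse 23 sample was under 1.8, as it was for mice 3 and 19 of that group, which read 9.61 and 9.56. The difference over both states was 0.15 (SE 0.051, 1.11-fold, adjusted p = 0.128), and 4.94% of genes but none of these 6 were called. Without mouse 23 it was 0.18 (adjusted p = 0.0410), and leaving out any of the other 19 mice gave no call among the 6. At an unadjusted p under 0.05, with all mice, limma gave 2 of the 6, Igf1r and Tbc1d4, and 15.9% of all genes. No gene of the 6 was called for a dark minus light value that differed between regions, where 0 to 0.39% of all genes were (0.39% for hippocampus against hypothalamus and 0.13% for hippocampus against brain stem). For Igf1r these region differences ranged from -0.020 to 0.047 (adjusted p from 0.969 to 0.998).

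Tbc1d4 differed most in the hippocampus of vehicle mice, where it was 6.92, 7.01, 7.08, 7.09 and 7.31 at mid-dark, against 6.49, 6.62, 6.66, 6.69 and 6.78 at mid-light. Every dark sample exceeded every light sample, as was true, in either direction, of 4.16% of all genes. The difference was 0.43 (SE 0.090, 1.35-fold, adjusted p = 0.0133); 2.34% of genes and 1 of these 6 were called. In tumor mice the same region gave 6.70, 6.82, 6.92, 7.09 and 7.13 at mid-dark, against 6.83, 6.85, 6.85, 6.94 and 7.14 at mid-light, which overlapped throughout. The difference there was 0.014 (95% interval -0.18 to 0.20, adjusted p = 0.98), and 1.04% of genes but none of the 6 were called. The interaction was -0.42 (95% interval -0.69 to -0.15, unadjusted p = 0.00401), and with adjusted p = 0.509 over the panel it was not called, so a difference in the phase effect between tumor and vehicle mice was not shown. Over both states the hippocampal difference was 0.22 (SE 0.064, 1.17-fold, adjusted p = 0.0448).

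The hippocampal calls over both tumor states were close to the threshold. Leaving out 1 mouse at a time, Igf1r stayed called in 5 of 20 fits (0.15 to 0.19, adjusted p 0.0329 to 0.0802) and Tbc1d4 in 3 of 20 (0.20 to 0.25, adjusted p 0.0227 to 0.101), and both were never called together. Subtracting the reference genes gave adjusted p = 0.422 and 0.290. The call of Tbc1d4 in vehicle mice held in 20 of 20 leave-one-out fits (0.38 to 0.47, adjusted p up to 0.0403). In 10 of these fits a tumor mouse was left out, which cannot change the difference, only its estimated error. With the reference genes subtracted the call was lost (0.37, adjusted p = 0.110).

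In hypothalamus Tbc1d4 was 7.45, 7.53 and 7.68 in vehicle mice at mid-dark, against 7.20, 7.21, 7.35 and 7.63 at mid-light. The difference was 0.21 in vehicle mice and of the opposite sign in tumor mice (-0.047, adjusted p = 0.957). Over both tumor states it was 0.081 (adjusted p = 0.761). In brain stem the vehicle mice gave 8.39, 8.41, 8.47 and 8.51 at mid-dark, against 7.96, 8.18, 8.23, 8.40 and 8.54 at mid-light, where the light samples were more spread. The difference over both states was 0.14 (SE 0.063, adjusted p = 0.283), with 0.18 in vehicle mice and 0.097 in tumor mice. Within the tumor states of these regions none of the 6 genes was called, with 0.26% (vehicle) and 1.04% (tumor) of genes called in hypothalamus and 1.30% and 0.78% in brain stem. Between regions the dark minus light value of Tbc1d4 differed by 0.14 (hippocampus against hypothalamus, 95% interval -0.045 to 0.33) and 0.087 (hippocampus against brain stem), and neither was called.

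Oligodendrocyte markers moved with phase in the same samples. Averaged over regions, 4 of the 5 were lower at mid-dark (median -0.33, and 0.0070 over all genes), with the same count in hippocampus and in brain stem and 1 of 5 in hypothalamus. In hippocampus their summed level was 13.2 to 14.2 at mid-dark and 13.7 to 14.7 at mid-light. The markers thus ran against Igf1r and Tbc1d4 between phases, whereas between regions they ran with Tbc1d4. The summed level of the 5 endothelial markers (Cldn5, Esam, Tie1, Emcn and Icam2) ran with both genes. Its median at mid-dark and mid-light was 10.9 and 10.7 in hippocampus, 11.0 and 10.8 for hypothalamus, and 11.0 and 10.9 for brain stem, and the ranges overlapped in each region. Averaged over regions, 1 endothelial marker was higher at mid-dark (Cldn5, a tight junction gene, by 0.37, adjusted p = 8.99e-07) and 1 was lower (Icam2, an adhesion gene, -0.19, adjusted p = 0.00108), and the median of the 5 was -0.086. The part of either cell type in the phase differences was not tested.

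Igf1, Igf2r, Akt1 and Akt2 were called in no phase comparison. Over both tumor states Igf1 gave -0.15 in hippocampus, 0.22 in the hypothalamus and 0.039 in the brain stem, and its hippocampus against hypothalamus difference was -0.38 (unadjusted p = 0.0393, adjusted p = 0.517). Igf2r in the hippocampus of vehicle mice was 9.29, 9.31, 9.38, 9.41 and 9.43 at mid-dark, against 9.12, 9.16, 9.18, 9.20 and 9.38 at mid-light. All but 1 of its light samples lay under the dark range, and the difference of 0.16 had adjusted p = 0.195. Akt1 and Akt2 were lower at mid-dark in hippocampus by small amounts (-0.047 and -0.096, adjusted p = 0.701 and 0.551), within their spread.

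**Figure D2:**
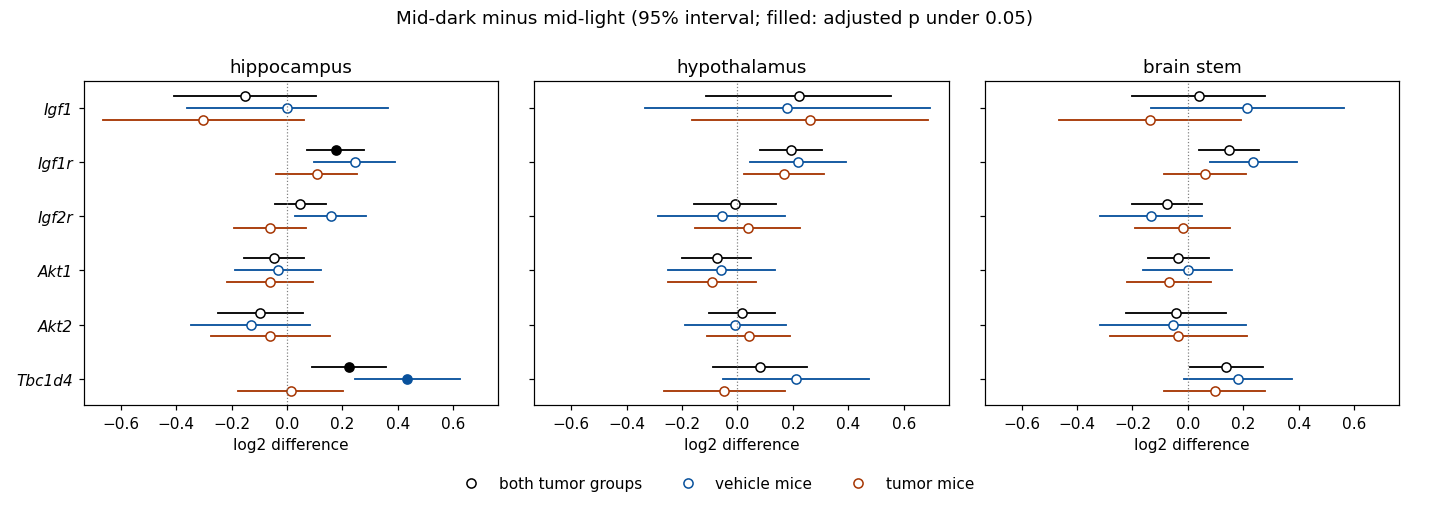
Mid-dark minus mid-light difference in log2 units (horizontal axis) with its 95% interval for each gene, by region, over both tumor groups (black), in vehicle mice (blue) and in tumor mice (brown); filled points passed an adjusted p of 0.05. Igf1r lies above 0 in every row of every region (0.062 to 0.24), and Tbc1d4 in hippocampus is at 0.43 in vehicle mice and 0.014 in tumor mice.

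The study's planned comparisons set tumor against vehicle mice at each time of day. The paper filtered genes by p under 0.05, with no adjustment described, by fold change, or by both, a different rule from the adjusted p used here. With adjusted p, none of the 6 was called between tumor and vehicle mice, averaged over the 3 regions (2.34% of genes called) or within any region or phase. Of the planned comparisons, only hippocampus at mid-light had genes of the 6 under 0.05 unadjusted by limma, Tbc1d4 and Igf2r. The share of all genes at that cutoff is not given there. Within regions the share of genes called over both phases, at mid-dark and at mid-light was 0.52%, 0.13% and 0.13% for hippocampus, 0.26%, 0% and 0% for hypothalamus, and 1.04%, 0.26% and 0.78% for brain stem. At an unadjusted p under 0.05, limma gave 0 of the 6 averaged over regions and 9.48% of all genes, and the differences ran from -0.079 for Akt2 (95% interval -0.17 to 0.012) to 0.055 for Igf2r (-0.019 to 0.13). For Igf1r the average was -0.0024 (95% interval -0.065 to 0.061) and for Tbc1d4 0.036 (-0.055 to 0.13).

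The lowest unadjusted p-values were in the hippocampus at mid-light, for Tbc1d4 and Igf2r. The Tbc1d4 values above put every tumor mouse (6.83 to 7.14) over every vehicle mouse (6.49 to 6.78) at that time, as for 2.08% of all genes in either direction. The difference was 0.27 (95% interval 0.082 to 0.46, unadjusted p = 0.00755, adjusted p = 0.419), and it shares its vehicle mid-light samples with the dark against light difference in vehicle mice. At mid-dark the difference was -0.15 (adjusted p = 0.782), with overlapping groups. Igf2r at mid-light was 9.28, 9.30, 9.36, 9.43 and 9.57 in tumor mice against 9.12, 9.16, 9.18, 9.20 and 9.38 in vehicle mice, a difference of 0.18 (unadjusted p = 0.00891, adjusted p = 0.423). At this time and region 0.13% of genes were called.

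Igf1 in hypothalamus was 5.67, 5.71, 5.83, 5.98 and 6.01 in tumor mice at mid-dark against 5.13, 5.27 and 5.89 in vehicle mice. At mid-light it was 5.12, 5.40, 5.57, 5.71 and 6.08 against 4.77, 5.14, 5.32 and 5.77. Tumor samples were mostly the higher ones at both times, with overlap. The difference over both phases was 0.36 (SE 0.16, 1.29-fold, unadjusted p = 0.0343, adjusted p = 0.550), with 0.26% of genes called. In hippocampus Igf1 was -0.16 (adjusted p = 0.891), and the difference between these 2 regions in the tumor effect was -0.52 (95% interval -0.88 to -0.15, unadjusted p = 0.00641, adjusted p = 0.729). The hypothalamic vehicle groups lack the 3 samples labelled as outliers.

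**Figure D3:**
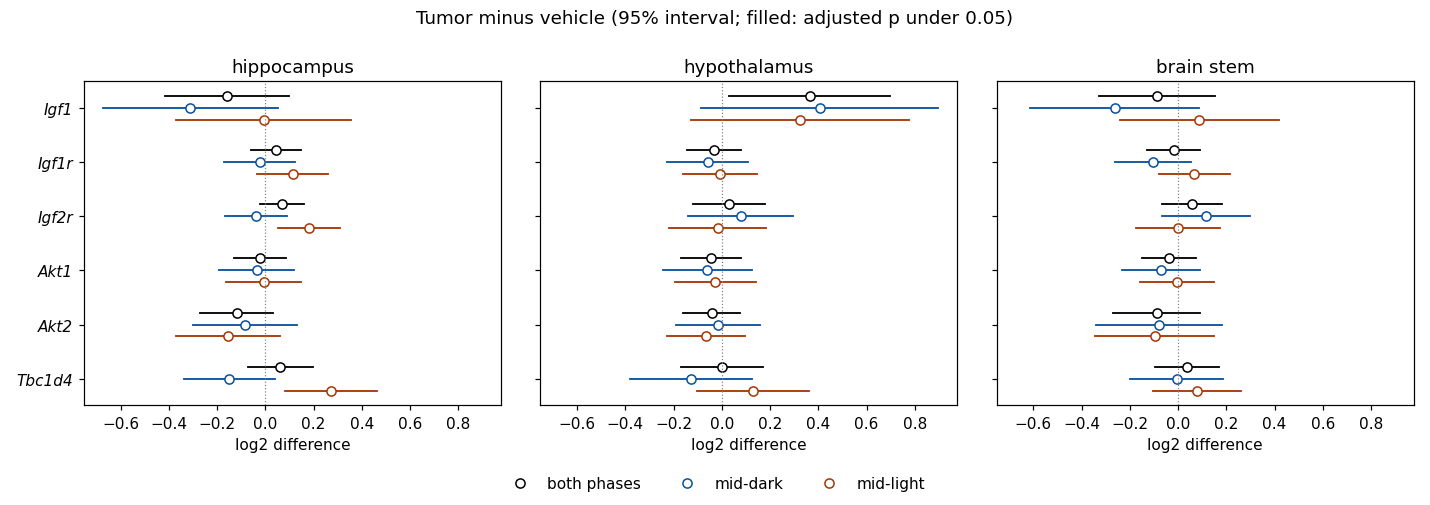
Tumor minus vehicle difference in log2 units (horizontal axis) with its 95% interval for each gene, by region, over both phases (black), at mid-dark (blue) and at mid-light (brown). No point is filled, since none passed an adjusted p of 0.05; Tbc1d4 in hippocampus is at -0.15 at mid-dark and 0.27 at mid-light, and Igf1 in hypothalamus is above 0 in each row.

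**Figure D4:**
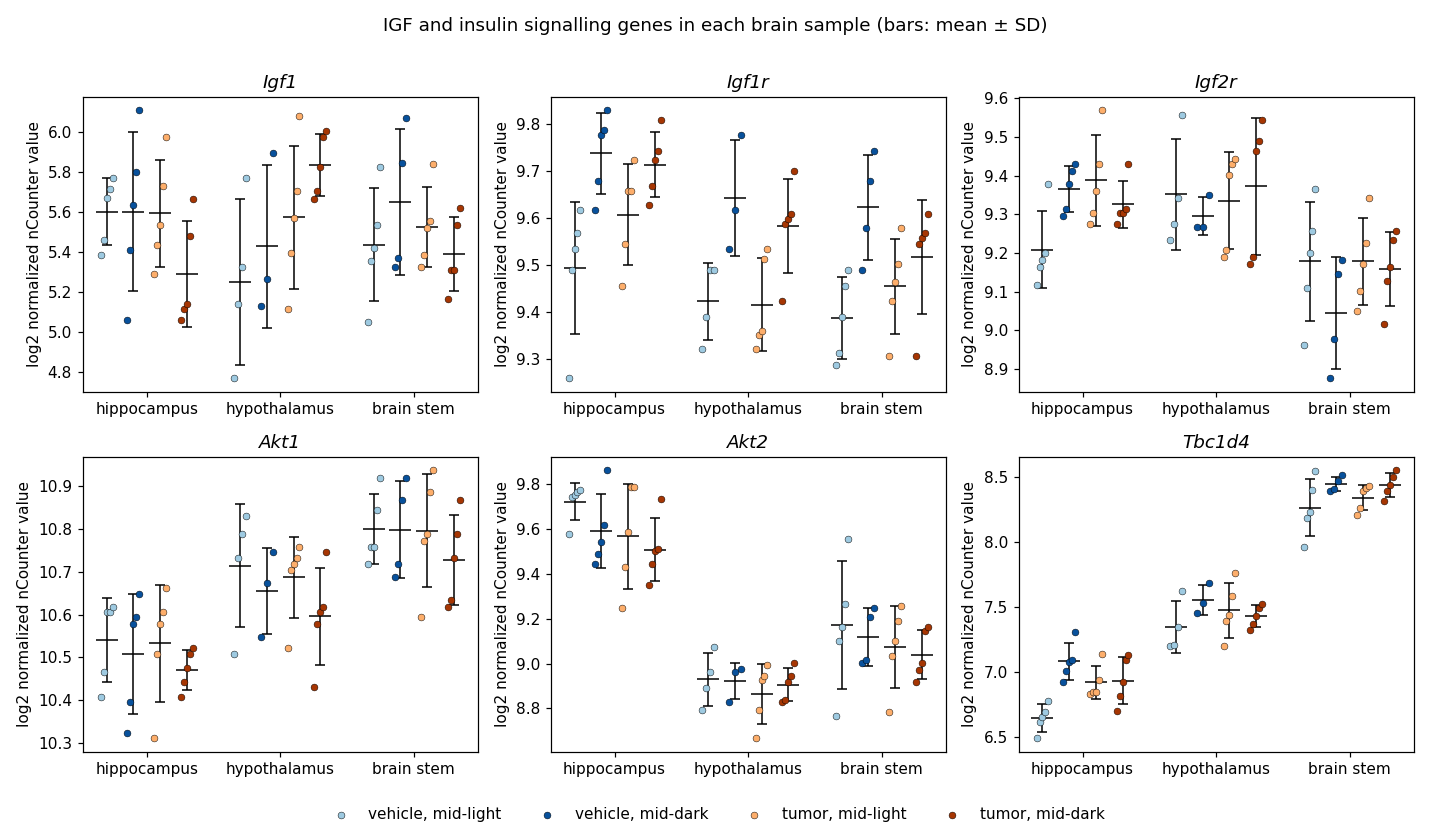
Log2 normalized value (vertical axis, a separate range for each gene) of every sample, by region and group; bars are the mean ± SD of the group. Dark samples of Igf1r (dark colours) sit higher than light samples on average in each region, with overlap in most groups, and Tbc1d4 steps up from hippocampus to brain stem.

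Of 33 other genes listed for the pathway, 9 were on the panel: the phosphatidylinositol 3-kinase catalytic subunits Pik3ca, Pik3cb, Pik3cd and Pik3cg, the regulatory subunits Pik3r1, Pik3r2 and Pik3r5, the lipid phosphatase Inpp5d, and the glucose transporter Slc2a1. Between regions 8 of 9 were called in hippocampus minus hypothalamus (71.7% of the panel), 9 of 9 in hippocampus minus brain stem (76.6%) and 5 of 9 in hypothalamus minus brain stem (66.5%). Pik3r2 led the first 2, at 1.10 (SE 0.035) and 1.21 (SE 0.034), and Pik3cb the third, at -0.56 (SE 0.030). Between dark and light none of the 9 was called averaged over regions (13.5% of the panel), and 4 were at an unadjusted p under 0.05 by limma, as were 25.6% of all genes. Pik3cb had the smallest p (0.076, adjusted p = 0.0630), and the list's median was 0.072 against 0.0070 over all genes. Within regions none was called either, with the smallest p for Pik3cd in hippocampus (0.31, adjusted p = 0.0605) and in brain stem (0.15, adjusted p = 0.222) and for Pik3ca in hypothalamus (0.066, adjusted p = 0.497). Between tumor and vehicle mice 1 of 9 was called averaged over regions (2.34% of the panel): Slc2a1, which carries glucose across the blood-brain barrier, was higher in tumor mice by 0.21 (SE 0.043, adjusted p = 0.00191). Within regions it was not called (0.25, 0.19 and 0.17 in hippocampus, hypothalamus and brain stem, adjusted p = 0.166, 0.365 and 0.744). Of the 5 endothelial markers, 1 was higher and 1 lower in tumor mice in that comparison, and their part in the Slc2a1 difference was not tested.

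Among 13 textbook targets of FoxO, the transcription factors that AKT holds inactive, 11 were measured. Averaged over regions, 2 of 11 were higher at mid-dark (8.05% of the panel) and none lower (5.45%): Cdkn1a, which encodes the cell cycle inhibitor p21, by 0.38 (SE 0.052, adjusted p = 3.82e-07) and Ccng2, an atypical cyclin, by 0.19 (SE 0.049, adjusted p = 0.00422). The list's median was 0.022. Within regions Cdkn1a was called in hippocampus (0.31, adjusted p = 0.0248) and brain stem (0.52, adjusted p = 6.09e-04), there also in vehicle mice alone (0.65, adjusted p = 0.00339), and Ccng2 in hypothalamus (0.22, adjusted p = 0.0317). Between tumor and vehicle mice averaged over regions 1 of 11 was called (2.34% of the panel), again Cdkn1a (0.19, adjusted p = 0.0324). Within regions the smallest tumor p-values of the list were those of Cdkn1a in hippocampus (0.26, adjusted p = 0.242) and brain stem (0.20, adjusted p = 0.648) and of Bnip3, a mitochondrial cell death gene, in hypothalamus (0.10, adjusted p = 0.770). Cdkn1a and Ccng2 are controlled by other factors as well. Between regions 10, 10 and 9 of the 11 were called in the order above (71.7%, 76.6% and 66.5% of the panel), with the smallest p for Ccng2 (1.30), Gadd45a (-1.09), a DNA damage response gene, and Bnip3l (-0.29), a mitophagy receptor gene.

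Over all 56 samples, after the mean of its region was subtracted from each gene, Igf1r and Tbc1d4 correlated with Pearson's r = 0.44 and Akt1 and Akt2 with r = 0.60. The other pairs of the 6 lay between -0.16 and 0.30. These are descriptions over samples that share mice and a common normalization. The gene of the panel most like both Igf1r (r = 0.71) and Tbc1d4 (r = 0.52) was Nwd1, followed by Rapgef3 (0.62) and Plekhm1 (0.62) for Igf1r and by Nod1 (0.46) and Cd70 (0.45) for Tbc1d4. Akt1 was closest to Map1lc3a (0.75), Ptms (0.70) and Flt1 (0.70), and Akt2 to Rps10 (0.75), Rps9 (0.72) and Ptms (0.70). Igf2r was closest to Kmt2c (0.57), Kdm4a (0.48) and Cotl1 (0.47), and Igf1, with the weakest matches, to Slco2b1 (0.42), Calcoco2 (0.42) and Fcer1g (0.40).

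Likeness was also read over the 12 group means, where region set the largest differences of Tbc1d4 and Akt2. For Igf1r the difference between phases (0.17) was above those between regions (0.021 to 0.14). Tbc1d4 was closest to Tnfrsf12a (0.99), S100b (0.98) and Iqsec1 (0.98), and Akt2 to Relb (0.98), Arc (0.98) and Grin2a (0.98). Akt1 was closest to Cideb (0.98), Fancc (0.98) and Cyp27a1 (0.97), Igf1r to Myc (0.93), Nwd1 (0.91) and Myd88 (0.89), Igf2r to Cotl1 (0.92), Parp2 (0.91) and Bid (0.90), and Igf1 to Klrk1 (0.58), Il21r (0.57) and Ncr1 (0.55). Nwd1 was thus among the nearest genes to Igf1r on both scales.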

How the data were processed

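RNA of 3 brain regions was read with the nanoString nCounter mouse neuroinflammation panel. The authors subtracted the negative control background, normalized to positive controls and codeset content in nSolver, and quantile normalized in Partek, and the deposited values are log2 expression. Counts before normalization were not used here, so depth is unknown and quantile normalization removes any shift of a whole sample. Groups, and mouse numbers, came from the sample labels. Each region was fitted with limma 3.58.1 (R 4.3.3) as 4 group means, and the 3 regions together as 12 group means with the mouse as a random block (consensus correlation 0.136). Differences were tested with eBayes and adjusted by Benjamini-Hochberg over all 770 genes (769 in hippocampus and in brain stem, where 1 gene had a single value), with calls at an adjusted p under 0.05. As an alternative, t-statistics without the moderation of eBayes were taken from the same fits. They use the spread over all groups of a fit, so this unmoderated t-test is not the Student's t-test between classes that the paper's methods name. Mouse numbers pair regions because they name the same animal, and deviations from group means correlated across regions with a median r of 0.090 to 0.12. The scripts were tested on simulated data. Figures were drawn with matplotlib.

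The 6 genes, the pathway, FoxO and marker lists and the tests were chosen with earlier results of these data known. Some genes first placed on these lists are not reported here and enter no list count. Of the lists, genes were named where called between phases or tumor states, or where they had the smallest p of their list, and for each of the 6 genes the 3 with the highest r. Promoters came from RefSeq (GRCm38.p6), in which all 6 genes matched; the windows of 2 are printed.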

Additional observations from a re-analysis of the deposited data

Results flagged for a closer look

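In 4 of the 66 groups of 4 or 5 samples examined for the 6 genes, 1 sample stood apart from the rest by Dixon's ratio of its gap to the group's range, which chance gives in about 1 group in 20. In brain stem of tumor mice at mid-dark, Igf1r of mouse 23 was 9.30 against 9.54 for the nearest sample (ratio 0.791). The RNA absorbance ratio of that mouse 23 sample was under 1.8, as in 3 of the 9 brain stem samples at mid-dark, all from tumor mice. The other such samples, of mice 3 and 19, read 9.61 and 9.56. The part of purity was not tested. Mouse 23 also had the lowest Igf1r of its group in hippocampus (9.63) and hypothalamus (9.42), in samples with a ratio above 1.8. Without mouse 23 the brain stem dark minus light difference of Igf1r was 0.18 (adjusted p = 0.0410), and leaving out any of the other 19 mice gave no call. In hippocampus of tumor mice at mid-dark, Igf2r of mouse 3 was 9.43 against 9.31 (ratio 0.763). In hypothalamus of tumor mice at mid-light, Akt1 of mouse 1 was 10.52 against 10.70 (ratio 0.776). In hippocampus of vehicle mice at mid-light, Akt2 of mouse 10 was 9.58 against 9.74 (ratio 0.835).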

How the results depend on the processing

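Subtracting the 13 reference genes shifted the median of all genes by 0.11 between hippocampus and hypothalamus and by -0.13 between hypothalamus and brain stem. It turned Igf2r in the first to 0.093 (adjusted p = 0.0499) and Igf1r in the second to -0.11 (adjusted p = 0.0171). The calls of Akt1 in the first (-0.042, adjusted p = 0.394) and of Igf2r in the second (0.063, adjusted p = 0.192) were lost. The direction of such small region differences therefore depends on the scaling. It also left 1 of the 6 genes called for dark against light over 3 regions (2 as reported), 0 in hippocampus over both tumor states (2) and 0 in hippocampus of vehicle mice (1). For hippocampus over both tumor states, the count was 1 with quantile normalization within each region and 1 with the unmoderated t-test adjusted by Benjamini-Hochberg. It was 1 with trend and robust moderation. Without the samples whose RNA absorbance ratio was under 1.8, an alternative added after seeing the data, it was 0. In hippocampus that alternative removed only the sample of mouse 12, so it repeats the fit without that mouse. In vehicle mice alone, the hippocampus minus hypothalamus difference of Igf1r had adjusted p = 0.175 and the hypothalamus minus brain stem difference of Akt1 adjusted p = 0.0735.

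Leaving out each mouse in turn gave 1 to 2 called genes over 3 regions, 0 to 1 in hippocampus over both states (0 for 12 mice, 1 for 8), 1 to 2 in hippocampus of vehicle mice (2 without mouse 28), 0 to 1 in hypothalamus and 0 to 1 in brain stem over both states (1 without mouse 23 in each). For dark against light over both states in hypothalamus, a filter at a mean log2 value of 5 gave 1 called gene against 0. Fitting the 3 regions together with the replicate block, so that mice pair the regions, gave 1 there and 2 in hippocampus of vehicle mice. A fixed replicate block changed no call between regions, or for phase and tumor effects compared between regions. It cannot fit dark against light or tumor against vehicle averaged over the 3 regions, so those calls were not tested with it. Dropping the block changed no call in any of these comparisons, the averages included. Neither alternative was run within a region, where the reported fits had no block.

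The unmoderated t-test at an unadjusted p under 0.05 called 3 genes in hippocampus of vehicle mice (dark against light). It called 2 each in brain stem over both states (dark against light), in hippocampus at mid-light (tumor against vehicle) and in the hippocampal interaction. It called 1 each in hypothalamus over both states, in vehicle mice and in tumor mice (dark against light), in brain stem of vehicle mice (dark against light), in hypothalamus over both phases (tumor against vehicle), in the hippocampus against hypothalamus comparison of the phase effect, and in both comparisons of the tumor effect that involve the hypothalamus, where the reported tests called 0. The share of all genes that the unmoderated t-test gave was not counted, so these counts cannot be set beside the panel. At the same threshold limma gave 13.2% of all genes in hypothalamus and 15.9% in brain stem (dark against light, both states). The causes were not tested. The number of mice, 3 to 5 in a group, limits the precision, and the lack of raw counts leaves signal over background unknown.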
